A study of Mus musculus with 4 samples.

Results

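The genes described here are those that activate fatty acids, carry them into mitochondria and oxidize them in mitochondria and peroxisomes, together with the transcription factors Ppara and Ppard. They are a list of 39 gene symbols, each matched to the gene name column of the deposited table, and all 39 were found among its 17691 genes. The table gives FPKM, that is fragments relative to transcript length and to all fragments of the library. The RNA came from lungs of C57BL/6 mice, wild type and 6 to 8 weeks old. The mice received either PBS, a salt buffer, or bleomycin, an anticancer antibiotic that breaks DNA and is widely used as a mouse model of lung fibrosis, through the nose, and the treatment time was 10 days. Each group has 2 libraries, although the protocol speaks of 4 groups and the design text of 3 replicates. Nothing in the labels ties the libraries to separate animals. All p-values here therefore reflect the spread between these libraries alone, and that spread may be technical.

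A fatty acid is first joined to coenzyme A by a long-chain acyl-CoA synthetase (ACSL). Carnitine palmitoyltransferase 1 (CPT1) then moves the acyl group to carnitine, a carrier (SLC25A20) takes it through the inner mitochondrial membrane, and CPT2 returns it to coenzyme A. Inside, dehydrogenases, hydratases and thiolases shorten the chain turn by turn, and the electron transfer flavoprotein (ETF) passes electrons to the respiratory chain. Peroxisomes run a parallel pathway for very long and branched chains. In lung, alveolar type II cells and alveolar macrophages handle large amounts of lipid because surfactant is made and cleared there. PPAR-alpha and PPAR-delta are lipid-sensing nuclear receptors that switch on genes of this pathway in many tissues.

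The libraries held an estimated 17000000 to 17800000 fragments, read from the steps that 1 fragment makes in low FPKM values. The type II marker gene Sftpc stood at 7913 to 12788 FPKM. The groups also differed in other ways that touch every comparison below. The Y-linked gene Eif2s3y was at 26.43 and 28.86 FPKM under PBS against a listed value of 0 in both bleomycin libraries, so treatment and sex cannot be told apart. Of 11 tested hepatocyte markers 10 fell. The summed level of all 14 listed hepatocyte markers was 140.7 FPKM in each PBS library and 15.77 and 13.97 FPKM under bleomycin. Of 13 recruited macrophage markers 10 rose, from sums of 793.1 and 837.7 FPKM to 2827 and 1585 FPKM. In such whole-tissue RNA, fewer cells of a type and less RNA per cell cannot be told apart.

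Most tested genes of the pathway did not pass the test described below, and the few that did changed in both directions. Acsl4, Cpt1c, Acads and Ppard rose, by 1.35-fold (Ppard) to 1.92-fold (Cpt1c), while Acsl1 and Acaa2 fell 1.88-fold and 1.45-fold. The test was limma on log2(FPKM + 1) over the 12986 genes whose mean reached 1 FPKM, with a Benjamini-Hochberg adjusted p under 0.05 as the threshold. Of the 39 members 38 were tested, Ppara being below the filter, and 4 rose, 2 fell and 32 did not pass. That is 15.8% of the tested members, against 16.3% of all tested genes (8.59% called higher and 7.69% called lower), so the share of called members was near the background. The median log2 change was -0.012 over the members and -0.024 over all tested genes, and the median absolute change was 0.17 against 0.23. An absolute log2 change of at least 0.5 was seen for 5 of 38 members (13.2%) and for 22% of all tested genes. The groups did not overlap for 24 of 38 members (63.2%, against 66.5% of all tested genes). By limma 15 of 38 members had an unadjusted p under 0.05 (39.5%, against 35.3%). With PBS replicate 1 left out the median log2 change was -0.039 over the members and -0.016 over all tested genes. With PBS replicate 2 left out these medians were -0.029 and -0.029. Without either PBS library limma made no call, among members or other genes. Without bleomycin replicate 1 it called 15 members (39.5%, against 42.2% of all tested genes) and without replicate 2 it called 16 (42.1%, against 33.5%), in each case with the 6 above among them. Without the filter on low values the calls of Cpt1c and Acaa2 alone held, the other 4 being at adjusted p = 0.0504 to 0.0701 by limma.

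**Figure D1:**
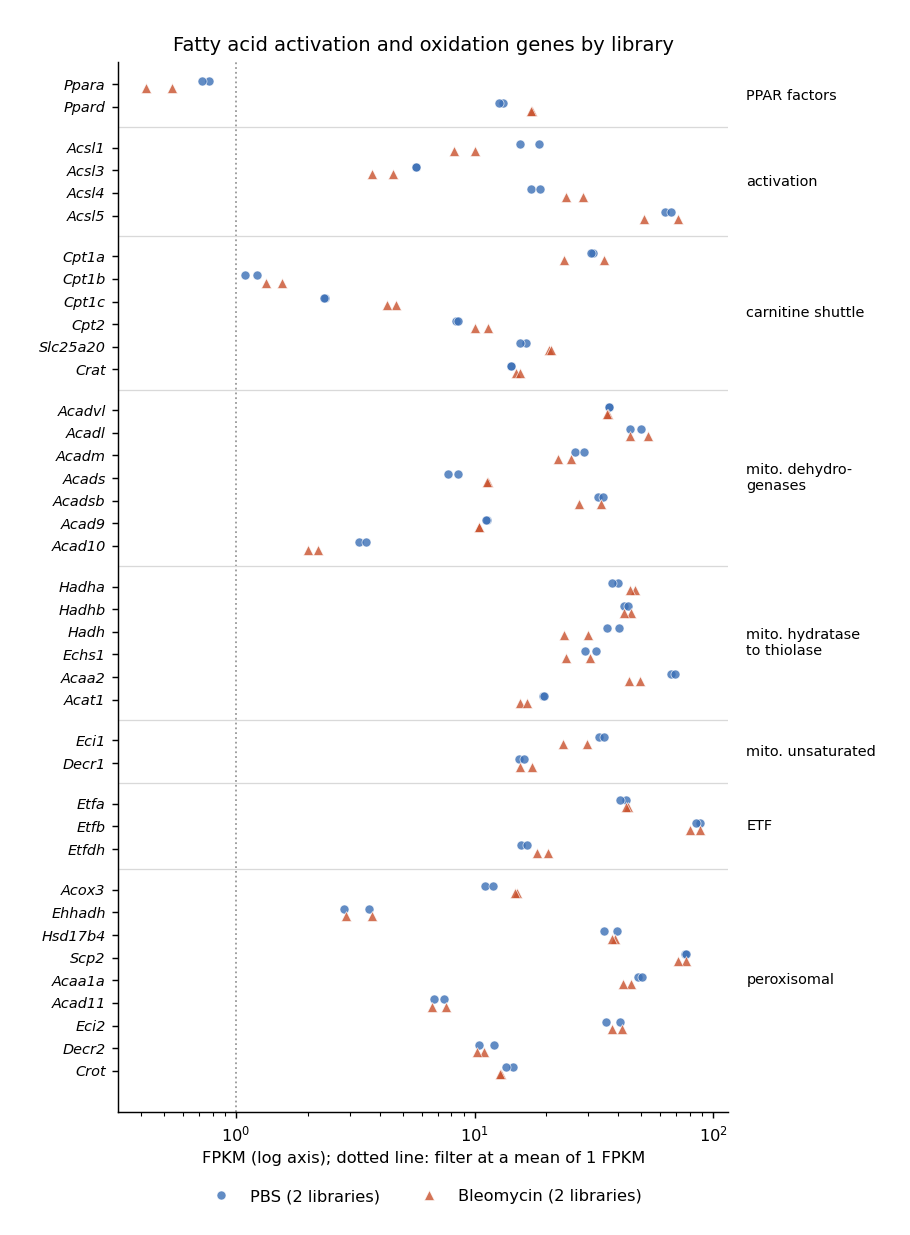
FPKM of all 39 members in each library on a log axis, grouped by step (circles PBS, triangles bleomycin, 2 libraries each, with no averaging). Circles and triangles do not overlap for 24 of the 38 tested genes. Among these are the 6 that passed the test, such as Cpt1c, and some that did not, such as Acad10.

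Of the lipid-sensing receptors, Ppard was the higher by far. Ppard (chromosome 17, 28232754 to 28301469, GRCm38.p6 as for all positions) was at 13.09 and 12.68 FPKM under PBS and 17.47 and 17.22 FPKM under bleomycin. Both bleomycin libraries lay above both PBS libraries, with a log2 change of 0.40 ± 0.08 (SE, n = 2 per group, limma adjusted p = 0.0372). Ppara, the receptor best known from liver, was at 0.77 and 0.72 FPKM under PBS and 0.42 and 0.54 FPKM under bleomycin. These values rest on an estimated 39 and 37 fragments under PBS and 21 and 29 under bleomycin. Fitted without the filter, Ppara did not pass (log2 change -0.24 ± 0.07, limma adjusted p = 0.118).

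The long-chain acyl-CoA synthetases moved apart. Acsl1, the main synthetase of heart, fat and liver (chromosome 8, 46471037 to 46536051), was at 18.64 and 15.53 FPKM under PBS and 10 and 8.21 FPKM under bleomycin. Both bleomycin values were below both PBS values, and Acsl1 fell by 0.84 ± 0.14 on the log2 scale (SE, limma adjusted p = 0.0254). Acsl4, which prefers arachidonic acid (chromosome X, 142317993 to 142390802), was at 17.25 and 18.78 FPKM under PBS and 28.38 and 24.26 FPKM under bleomycin, again without overlap. Its log2 change was 0.52 ± 0.11 (limma adjusted p = 0.042), and the call was lost without the variance trend (adjusted p = 0.0551). Acsl4 is X-linked, and the libraries differ in Y-linked transcripts as given above, so for this gene too sex and bleomycin cannot be told apart.

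Acsl5, a synthetase of mitochondrial and endoplasmic reticulum membranes, had the highest level of the family. It stood at 62.6 and 66.22 FPKM under PBS, and the bleomycin libraries fell on either side at 71.37 and 51.4 FPKM. Acsl3, tied to lipid droplet formation, was at 5.67 and 5.69 FPKM under PBS and 4.55 and 3.72 FPKM under bleomycin and did not pass (limma adjusted p = 0.103). As a share of the summed FPKM of these 4 genes, Acsl1 made up 17.9% and 14.6% under PBS and 8.75% and 9.37% under bleomycin. Acsl4 made up 16.6% and 17.7% under PBS and 24.8% and 27.7% under bleomycin. The ratio of Acsl4 to Acsl1 was 0.925 and 1.21 under PBS and 2.84 and 2.95 under bleomycin. Thus the 2 genes had about equal levels under PBS, and Acsl4 was the higher in both bleomycin libraries.

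**Figure D2:**
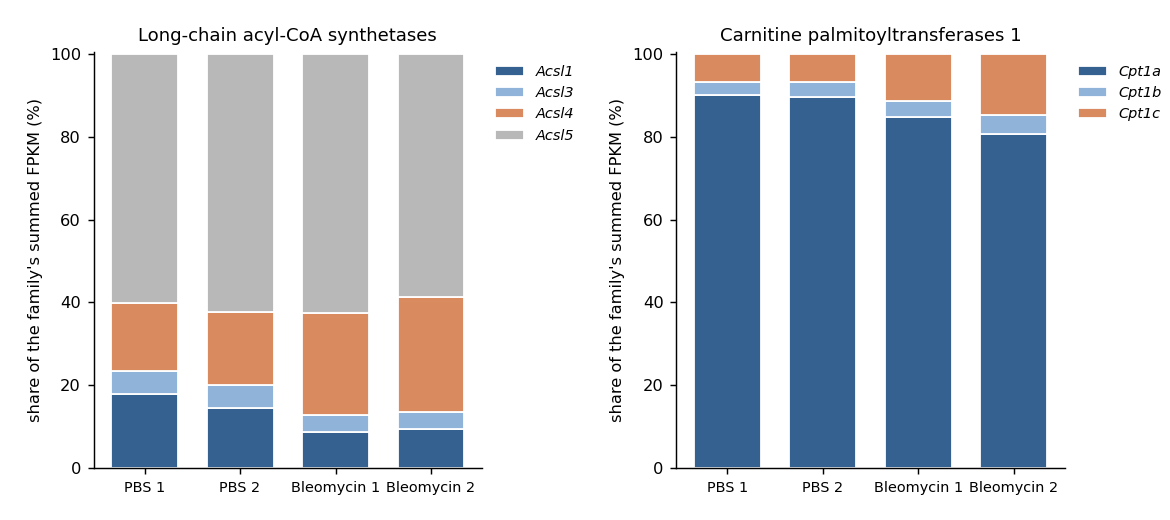
Share of each gene in the summed FPKM of its family in each of the 4 libraries, in percent. In the left panel Acsl1 shrinks and Acsl4 grows under bleomycin while Acsl5 stays the largest share; in the right panel Cpt1c grows from 6.78% and 6.79% to 11.4% and 14.6% and Cpt1a stays above 80% in each library.

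In the carnitine shuttle 1 of 6 genes rose and none fell, a called share of 16.7% against 16.3% of all tested genes. Cpt1c, a brain-enriched form of CPT1 that sits in the endoplasmic reticulum and has little transferase activity (chromosome 7, 44958483 to 44974880), was at 2.36 and 2.33 FPKM under PBS and 4.69 and 4.31 FPKM under bleomycin. The groups were well apart, with a log2 change of 0.72 ± 0.11 (limma adjusted p = 0.0221), and the values rest on an estimated 111 to 225 fragments per library. Up to 114 bases of a Cpt1c exon overlap the antisense gene 6530437J22Rik, and whether the counting used strand is not given in the sources used here. Cpt1a, the form that sets the pace of mitochondrial entry in most tissues, was at 31.34 and 30.73 FPKM under PBS and 34.84 and 23.8 FPKM under bleomycin. The bleomycin libraries thus lay on both sides of the PBS pair, and the direction depended on which was left out: the log2 change was 0.16 without bleomycin replicate 2 and -0.37 without replicate 1. Cpt1b, the muscle form, was at 1.09 and 1.23 FPKM under PBS and 1.56 and 1.34 FPKM under bleomycin (limma adjusted p = 0.409). The ratio of Cpt1a to Cpt1c was 13.3 and 13.2 under PBS and 7.43 and 5.52 under bleomycin.

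The later shuttle genes were higher under bleomycin in each library but did not pass. The carrier gene Slc25a20 was at 16.47 and 15.55 FPKM under PBS and 20.49 and 20.88 FPKM under bleomycin (log2 change 0.35 ± 0.08, limma adjusted p = 0.0524). It passed with a filter at 5 FPKM, with TPM scaling and with quantile normalization. It also passed without either bleomycin library, where 42.2% and 33.5% of all tested genes did, with 1 library left in that group. Cpt2 was at 8.39 and 8.48 FPKM under PBS and 11.35 and 9.99 FPKM under bleomycin (limma adjusted p = 0.109). Crat, which makes acetylcarnitine, was at 14.16 and 14.2 FPKM under PBS and 14.98 and 15.52 FPKM under bleomycin. In 5 of these 6 shuttle genes, all but Cpt1a, both bleomycin libraries were above both PBS libraries. Counted in either direction, groups did not overlap for 83.3% of the shuttle genes and for 66.5% of all tested genes. The share of all tested genes with bleomycin wholly above PBS is not given here.

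The acyl-CoA dehydrogenases, which open each turn of the spiral and divide the work by chain length, held 1 call among 7 genes. That is 14.3%, against 16.3% of all tested genes. Acads (short-chain acyl-CoA dehydrogenase, chromosome 5, 115110299 to 115119346) was at 8.52 and 7.75 FPKM under PBS and 11.38 and 11.24 FPKM under bleomycin. It rose with a log2 change of 0.43 ± 0.09 (limma adjusted p = 0.0447), close to the threshold, and lost the call when libraries were scaled without the most abundant genes (adjusted p = 0.0587) and when limma's variance trend was dropped (adjusted p = 0.0509). Acadl (long-chain) had the highest level of the step, at 44.71 and 49.87 FPKM under PBS and 53.41 and 44.58 FPKM under bleomycin, so that its groups overlapped. Acadvl (very long chain) lay between 35.95 and 36.66 FPKM in all 4 libraries, and its 95% interval ran from -0.22 to 0.17 on the log2 scale. Acadm (medium-chain) was at 26.37 and 28.65 FPKM under PBS and 22.45 and 25.32 FPKM under bleomycin (limma adjusted p = 0.23). Of the summed FPKM of these 4 genes Acads made up 7.33% and 6.3% under PBS and 9.23% and 9.6% under bleomycin.

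Of the other genes of the dehydrogenase family, Acad10, a less studied member, was at 3.29 and 3.5 FPKM under PBS and 2 and 2.21 FPKM under bleomycin. The groups were apart, but Acad10 did not pass (log2 change -0.50 ± 0.12, limma adjusted p = 0.0541). It passed without the variance trend and, as did the many genes counted above, without either bleomycin library. Acad9, which also serves the assembly of respiratory complex I, and Acadsb, which acts on short branched chains, had log2 changes of -0.091 ± 0.084 and -0.14 ± 0.12.

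Among the 6 genes of the enzymes that follow, only the thiolase gene Acaa2 passed (16.7%, against 16.3% of all tested genes). Acaa2, which cuts medium-chain ketoacyl-CoA in the last reaction of each turn (chromosome 18, 74779212 to 74806207), had the highest level of the step at 66.43 and 69.1 FPKM under PBS and was at 49.13 and 44.24 FPKM under bleomycin. It fell by 0.53 ± 0.09 on the log2 scale (limma adjusted p = 0.0257). Hadh, which oxidizes short-chain hydroxyacyl-CoA, was also below PBS in both libraries, at 40.09 and 35.87 FPKM under PBS and 29.96 and 23.78 FPKM under bleomycin, but did not pass (limma adjusted p = 0.077). Acat1, the thiolase that also acts in ketone body metabolism, was at 19.27 and 19.49 FPKM under PBS and 15.52 and 16.53 FPKM under bleomycin (limma adjusted p = 0.0993). Echs1, the short-chain hydratase, had overlapping groups.

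The trifunctional protein, which joins hydratase, dehydrogenase and thiolase activity for long chains, did not follow these values. Its alpha subunit gene Hadha was at 40.02 and 37.81 FPKM under PBS and 46.89 and 44.9 FPKM under bleomycin (log2 change 0.23 ± 0.08, limma adjusted p = 0.117). Its beta subunit gene Hadhb was at 42.1 and 44.01 FPKM under PBS and 45.32 and 42.14 FPKM under bleomycin, with overlap. The ratio of Acaa2 to Hadhb, both thiolase genes, was 1.58 and 1.57 under PBS and 1.08 and 1.05 under bleomycin.

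The genes for unsaturated chains and for electron transfer held no call. Eci1, an isomerase that shifts double bonds, was at 33.06 and 34.95 FPKM under PBS and 29.49 and 23.53 FPKM under bleomycin (log2 change -0.36 ± 0.13, limma adjusted p = 0.127), and Decr1, the dienoyl-CoA reductase, had overlapping groups. Etfb, the beta subunit of the electron transfer flavoprotein, had the highest mean level of all 39 members, at 87.86 and 84.28 FPKM under PBS and 88.22 and 79.51 FPKM under bleomycin. Etfa and Etfdh, for the alpha subunit and the ETF dehydrogenase, had log2 changes of 0.057 ± 0.078 and 0.24 ± 0.10. Over all 24 members listed as mitochondrial 2 rose (Acads and Cpt1c), 1 fell and 21 did not pass. That is a called share of 12.5% against 16.3% of all tested genes. Cpt1c is counted here with its family, although its product sits in the endoplasmic reticulum. The summed levels of all 24 were 669 and 675.8 FPKM under PBS and 657.3 and 625.4 FPKM under bleomycin.

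Peroxisomal oxidation showed no called change. By limma 0 of its 9 genes passed, against 16.3% of all tested genes. An unadjusted p under 0.05 was seen for 1 of 9 (11.1%), against 35.3% of all tested genes. Whether so short a list differs from these shares was not tested. Scp2, whose product includes a peroxisomal thiolase, had the highest level at 75.82 and 76.85 FPKM under PBS and 76.72 and 71.14 FPKM under bleomycin, with overlap. Acox3, an oxidase for branched chains, was the gene at the low p, at 11.06 and 11.94 FPKM under PBS and 15.02 and 14.75 FPKM under bleomycin (log2 change 0.35 ± 0.09, limma adjusted p = 0.0613). It passed when FPKM was rescaled to TPM and, again with the many genes counted above, when either bleomycin library was left out. The bifunctional enzyme genes Ehhadh and Hsd17b4 had log2 changes of 0.025 ± 0.164 and 0.034 ± 0.094, and the thiolase gene Acaa1a one of -0.17 ± 0.08. Acad11, Eci2, Decr2 and Crot lay between -0.11 and 0.048.

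The intervals give the range of change that the spread between these libraries leaves. They rest on 2 libraries per group, which may not be separate animals, and on groups that differ in Y-linked transcripts. The intervals therefore do not bound an effect of bleomycin across mice. For 8 of the 9 peroxisomal genes the 95% interval of the log2 change lay within 0.5 of 0, Acox3 being the exception with 0.12 to 0.58. For the 32 members that did not pass, all 32 intervals lay within a change of 1 on the scale of log2(FPKM + 1), and 21 within 0.5. For low genes such as Acad10 that scale understates the change in FPKM. The summed peroxisomal level was 245.5 and 250.6 FPKM under PBS and 247.7 and 240.1 FPKM under bleomycin, and its ratio to the mitochondrial sum was 0.367 and 0.371 under PBS and 0.377 and 0.384 under bleomycin. Whether the peroxisomal and mitochondrial steps differed in their response was not tested.

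**Figure D3:**
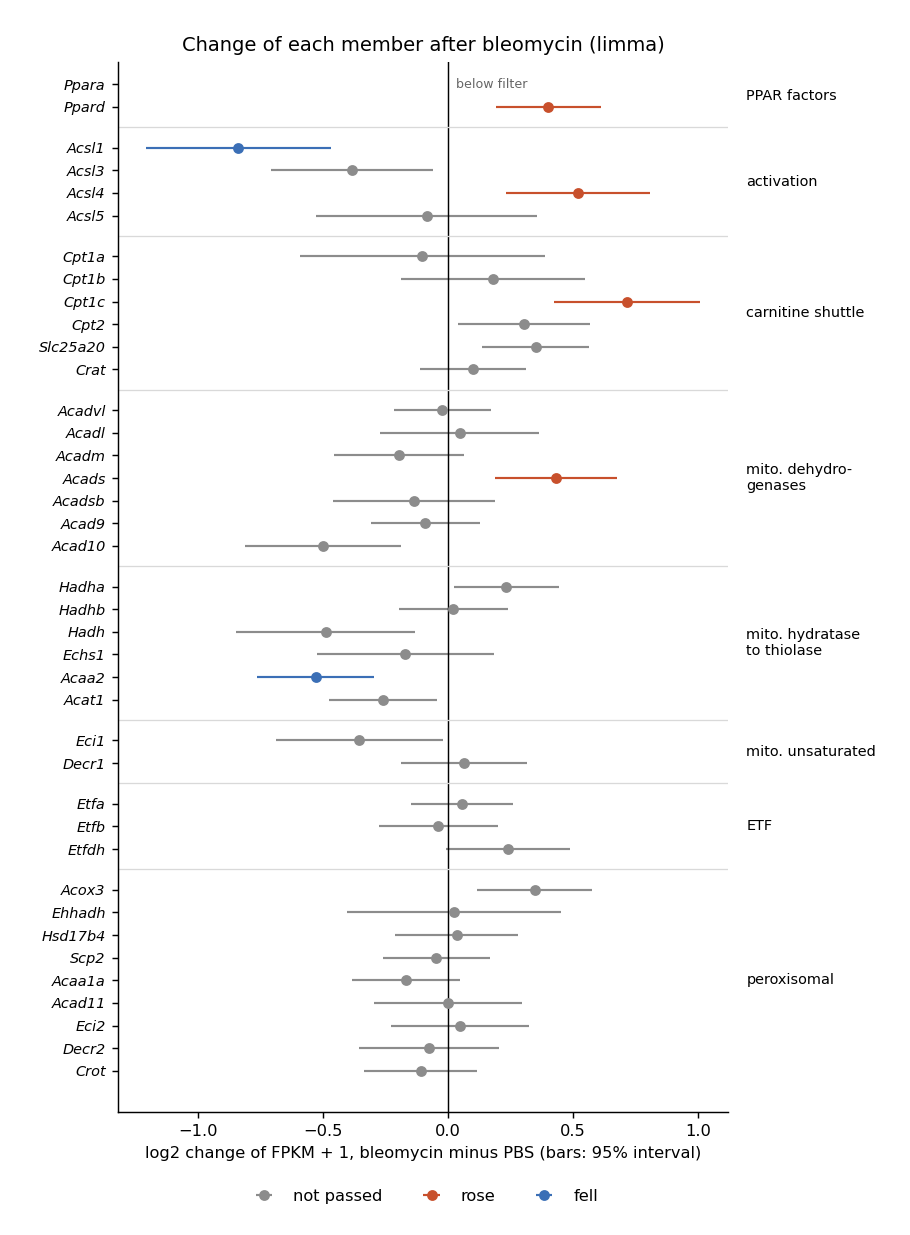
Log2 change of each tested member, bleomycin minus PBS, with its 95% interval from limma (x axis, log2 of FPKM + 1), grouped by step; red rose, blue fell, grey did not pass. The coloured genes are scattered over activation, shuttle, dehydrogenases and thiolases, and the peroxisomal genes lie near 0 except Acox3 at 0.35.

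Of other genes of fatty acid handling, listed beside the 39, few passed the test. Of those that were found, 85 passed the filter, and 1 rose, 7 fell and 77 did not pass, a called share of 9.41% against 16.3% of all tested genes. Of the 85 log2 changes 61 were below 0, against 52.7% of those of all tested genes, and their median was -0.17 against -0.024 over all tested genes. The gene that rose was Dbi, the acyl-CoA binding protein, from 84.5 and 94.65 FPKM under PBS to 124.86 and 126 FPKM under bleomycin (log2 change 0.48 ± 0.09, limma adjusted p = 0.0339). It was the 1 call among 16 tested genes of uptake, binding and activation (6.25%, against 16.3% of all tested genes).

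Of the 4 tested genes listed under carnitine supply 2 fell (50%, against 16.3% of all tested genes called in either direction), and Tmlhe and Aldh9a1 did not pass. Slc22a5, the carnitine importer OCTN2 of the cell membrane, was at 17.78 and 18.49 FPKM under PBS and 9.9 and 7.83 FPKM under bleomycin (log2 change -0.96 ± 0.13, limma adjusted p = 0.0164). Both bleomycin libraries were far below the PBS pair, a 2.05-fold fall of the means. Slc25a29, a mitochondrial carrier gene, was at 5.99 and 7.19 FPKM under PBS and 3.27 and 3.49 FPKM under bleomycin (log2 change -0.79 ± 0.13, limma adjusted p = 0.0228). What this carrier moves was not measured here, so its place on the list is a choice. The importer gene thus fell while the shuttle members other than Cpt1c did not pass.

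Of 15 genes for branched and odd chains and ketone bodies 2 fell (13.3%, against 16.3% of all tested genes called in either direction). Ivd, which oxidizes the leucine product isovaleryl-CoA, was at 40.61 and 45.25 FPKM under PBS and 24.64 and 25.52 FPKM under bleomycin (limma adjusted p = 0.0133). Pcca, a propionyl-CoA carboxylase subunit, was at 9.74 and 8.96 FPKM under PBS and 6.06 and 5.92 FPKM under bleomycin (log2 change -0.57 ± 0.10, limma adjusted p = 0.0261). Both genes had bleomycin values below PBS in each library.

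Of 26 further peroxisomal genes 2 fell (7.69%, against 16.3% of all tested genes called in either direction). Acaa1b, the paralog of Acaa1a, was at 5.25 and 4.58 FPKM under PBS and 1.86 and 1.77 FPKM under bleomycin, a 2.71-fold fall of the means (log2 change -1.07 ± 0.12, limma adjusted p = 0.0124). Acaa1a and Acaa1b are near-identical, and the authors' counting could split fragments between them, so the value of each is uncertain. Pxmp2, a peroxisomal membrane channel, was at 6.73 and 6.2 FPKM under PBS and 3.98 and 3.94 FPKM under bleomycin (log2 change -0.59 ± 0.10, limma adjusted p = 0.0274).

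Of 17 regulators 1 fell (5.88%, against 16.3% of all tested genes called in either direction). Lpin1, a phosphatidate phosphatase that also acts as a coactivator with PPAR-alpha, was at 15.52 and 16.5 FPKM under PBS and 8.04 and 5.91 FPKM under bleomycin (log2 change -1.10 ± 0.15, limma adjusted p = 0.0175). Of 7 tested PPAR target genes outside oxidation limma called 0, against 16.3% of all tested genes. An unadjusted p under 0.05 by limma was seen for 2 of them (28.6%, against 35.3% of all tested genes). Named after their values were seen, Angptl4 and Plin2 show how far the bleomycin libraries lay apart on that list. Angptl4, an inhibitor of lipoprotein lipase, was at 42.34 and 57.1 FPKM under PBS and 67.14 and 12.78 FPKM under bleomycin. Plin2, a lipid droplet coat protein gene, was at 59.8 and 63.64 FPKM under PBS and 114.69 and 67.48 FPKM under bleomycin.

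**Figure D4:**
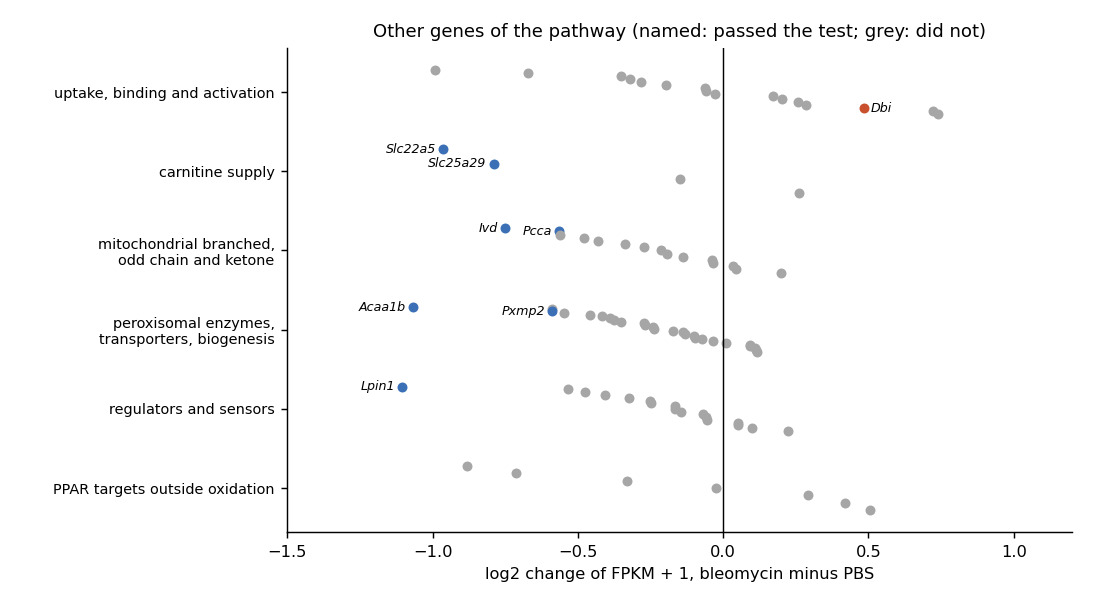
Log2 change (x axis, log2 of FPKM + 1, bleomycin minus PBS) of the 85 tested pathway genes outside the 39, by list; each point is a gene. The 8 that passed are named, with Dbi to the right and the other 7, led by Lpin1 at -1.10 and Acaa1b at -1.07, to the left.

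Several genes that fell are abundant in liver or fat, and many markers of those cells, though not all of fat, were lower in the same bleomycin libraries. The hepatocyte sums are given above, and Alb, the albumin gene, was at 14.43 and 14.23 FPKM under PBS and 1.01 and 0.66 FPKM under bleomycin. Of 8 adipocyte markers 3 were tested and 2 fell. The sums over all 8 were 18.58 and 26.85 FPKM under PBS and 8.53 and 5.26 FPKM under bleomycin. Adipoq was at 0.7 and 1.1 FPKM under PBS and 0.14 and 0.05 FPKM under bleomycin, while Plin1 and Lep had overlapping groups. Of 2 tested brown fat markers 1 fell, Cox8b, from 5.61 and 5.21 FPKM under PBS to 1.26 and 0 FPKM under bleomycin. The other, Cox7a1, had overlapping groups, at 3.58 and 4.15 FPKM under PBS and 5.19 and 3.17 FPKM under bleomycin. Among those below the filter, Dio2 was higher under bleomycin (0.6 and 0.99 FPKM, against 0.13 and 0.21 FPKM under PBS). Cidea had overlapping groups, and Ucp1 was at most 0.1 FPKM in any library. Of 5 tested heart and striated muscle markers limma called 0, and 1 had an unadjusted p under 0.05. The sums over all 10 listed markers were 48.81 and 40.51 FPKM under PBS and 38.16 and 31.44 FPKM under bleomycin. Of 9 tested clock genes 3 fell, among them Tef, from 169.15 and 174.45 FPKM to 67.17 and 49.48 FPKM. Of 9 type II cell markers 1 rose and 0 fell. Of the other lung and blood lists, 1 of 7 type I markers rose and 3 fell, 3 of 7 club cell markers and 1 of 7 ciliated cell markers fell, and 2 of 8 endothelial markers fell. Of 9 tested resident alveolar macrophage markers 1 rose and 4 fell, of 12 fibroblast markers 6 rose and 4 fell, and 5 of 5 tested red blood cell markers fell. Of 8 lymphocyte markers limma called 0, with 0 at an unadjusted p under 0.05. Beside these marker counts, limma called 8.59% of all tested genes higher and 7.69% lower, and 35.3% had an unadjusted p under 0.05. The part of any of these cells or of the clock in the falls of Acsl1, Acaa2, Slc22a5, Acaa1b and Lpin1, and that of recruited macrophages in the rises, was not tested.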

How the data were processed

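Whole-lung RNA was sequenced on a BGISEQ-500 instrument, per the labels, and 4 libraries, 2 per group by their titles, were used. The deposited values are FPKM, per the file headers, rounded to 2 decimals. The submitters' processing notes name Bowtie2, HISAT, mm10 and GRCm38. The counting tool was not given in the sources used here, nor was any version. Because FPKM is relative to all fragments of the library, a gene that takes many fragments lowers the rest. The share of Scgb1a1 in summed FPKM was 11.2% and 8.35% under PBS, against 3.98% and 4.28% under bleomycin. Its share of fragments was not computed and differs from these values, because FPKM also divides by transcript length.

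Of 17692 rows, 1 that names no gene (at most 0.0009% of a library's sum) was dropped, and 27 spreadsheet dates were turned back into gene names by transcript accession. The test, two-sided, was limma 3.58.1 under R 4.3.3 with a variance trend (prior degrees of freedom 2.76, residual 2). It ran on log2(FPKM + 1) of all genes whose mean reached 1 FPKM, and p-values were Benjamini-Hochberg adjusted over all of these genes. Such a log2 change understates that of low genes. For depth, values of 0.03 to 0.3 FPKM were taken from short genes (300 to 1000 bases in GENCODE, 1 transcript). The depth chosen made 75% to 78.1% of them whole fragments within 0.15, where chance gives 30%, so fragment numbers are approximate. Gene positions are from RefSeq.

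The members, steps and other lists were chosen with earlier results of these data known, and some genes of the pathway are not reported here. Pmp22, first listed as peroxisomal, was dropped because the symbol names a myelin protein. Named with values in every library are called members, the highest member of each step, those with an absolute log2 change of at least 0.5, the Cpt1, Acsl and Ppar genes, and up to 4 called genes of each other list; further members were added after their values were seen. Exons of 13 members overlap those of another annotated gene, Cpt1c alone among the called ones. On simulated data for this comparison (12986 genes) limma called 91% of 100 genes set to 2-fold and 100% of 100 set to 4-fold, and 12 of its 203 calls were false. The simulation used normal noise with the same spread in both groups and changed only these genes. In the data the median SD of the log2 values was 0.064 under PBS and 0.115 under bleomycin, and 2114 genes were called. The simulated rates may therefore not hold for the calls reported here. Alternatives varied the pseudocount, filter, scaling, variance model, replicate block and libraries kept. Python 3.11.15, pandas 2.3.3 and numpy 2.4.6 handled the tables.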

Additional observations from a re-analysis of the deposited data

How the results depend on the processing

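With 2 libraries per group, the number of called members depended most on the libraries kept. The bleomycin pair lay further apart than the PBS pair, with a median SD of 0.115 against 0.064 on the log2 scale. The test pools both groups into 1 variance per gene. Without a bleomycin library that variance rests on the PBS pair, and without a PBS library on the bleomycin pair. Leaving out each library in turn gave 0 to 8 members higher and 0 to 8 lower, 0 to 12 mitochondrial and 0 to 1 peroxisomal members called, and 0 to 7 other pathway genes higher and 0 to 35 lower; the lone library is then assumed to vary like the other group. The median change of the members ranged from -0.039 to 0.021 there. Without a filter on low values 1 member was higher and 1 lower (Cpt1c and Acaa2), with 0 other pathway genes higher. Without the variance trend 2 members were higher. TPM scaling called 1 peroxisomal member, and quantile normalization 13 other pathway genes lower. The scalings moved the median of all genes by at most 0.063.

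Deviations of same-numbered libraries had a correlation of 0.023 over 12986 genes, so the numbers were not taken to pair the libraries. With a replicate block 1 member was higher (Cpt1c) and 1 lower (Acsl1), and Cpt1c was thus the 1 member called among those listed as mitochondrial. In that setting 0 other pathway genes were higher, while limma called 842 genes higher and 799 lower in all.

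Among the 25 tested members given with values in every library, log2 changes reversed only in those that did not pass. TPM scaling gave 0.029 for Etfb, 0.021 for Scp2 and 0.044 for Acadvl, and quantile normalization -0.012 for Hadhb. When each library was left out in turn, the change ranged from -0.32 to 0.15 for Acsl5, -0.37 to 0.16 for Cpt1a, -0.081 to 0.17 for Acadl, -0.030 to 0.073 for Hadhb, -0.11 to 0.036 for Etfb and -0.10 to 0.0072 for Scp2. The sign turned without bleomycin replicate 2 for all of these but Acadl and Hadhb, whose sign turned without PBS replicate 1 (-0.031 and -0.0099) and without bleomycin replicate 1. The cause of these shifts was not tested. The 6 called members kept their direction in each alternative that tested them. Fragment numbers limit Ppara and Cpt1b most, at an estimated 21 to 39 and 54 to 78 per library.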

Other observations

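RefSeq promoters (GRCm38.p6, 250 bases before to 50 after the start) were matched for 32 of the 39 members. They were searched on both strands for the direct repeat bound by PPAR with RXR (AGGTCA, any base, AGGTCA, with up to 1 mismatch) and for the element of estrogen-related receptors (TCA followed directly by AGGTCA, with no mismatch); the shared hexamer lets the motifs overlap. The promoters of 0 members held either. Over all 27025 genes with a promoter listed, 0.644% held the repeat and 0.466% the element. The search says only that these letters are not in these windows.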
